A study of Rattus norvegicus with 8 samples.

Results

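Calsyntenins and neurexophilins are 2 small families of neuronal proteins that meet neurexins at the synapse. The 6 genes described here, Clstn1, Clstn2, Clstn3, Nxph1, Nxph3 and Nxph4, were taken by gene name from the protein-coding rows of the deposited count table, 6 of 22293 such rows. The mRNA came from the orbitofrontal cortex of adult male Sprague-Dawley rats, which were 8 weeks old on arrival. All animals received a local infusion of 1 µl of JetPEI transfection reagent with 5 ng of siRNA, and tissue was taken 7 days later. In 4 animals the siRNA matched the splice junction that closes circNrxn3, a circle of RNA made from the neurexin 3 gene (knockdown replicates 1, 2, 3 and 4), and in 4 it was a scrambled control (scrambled replicates 1, 3, 4 and 5). The tissue was taken whole, with no cell type selected. Circles lack a poly-A tail, so these poly-A selected libraries do not check the level of circNrxn3. Library totals were 28219271 to 35221782 counts in knockdown and 27589883 to 35191810 in scrambled libraries.

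The siRNA is shown because it alone separates the groups. Its strands are 21 bases long, of which 19 pair with the other strand and 2 form the 3′ overhang.
circNrxn3 siRNA sense strand: uccaaaggcuagacaggaauu
circNrxn3 siRNA antisense strand: uuccugucuagccuuuggauu

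Calsyntenins are transmembrane proteins with cadherin repeats. Clstn1 links cargo vesicles to the light chain of the motor kinesin-1 and travels with the amyloid precursor protein APP, and Clstn3 binds neurexins from the postsynaptic side. Their outer domains are shed by membrane proteases of the kind that also cut APP. Neurexophilins are secreted glycoproteins that bind the extracellular part of alpha-neurexins. In mouse cortex Nxph1 is known from inhibitory interneurons, and Nxph3 and Nxph4 from neurons of the deepest layer.

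The members spanned a wide range of mRNA levels in the same order in each of the 8 libraries, from Clstn1 through Clstn3, Nxph3, Nxph1 and Clstn2 down to Nxph4. Levels between genes are compared on the FPKM scale, reads divided by gene model length and by library size. Clstn1 stood 2.74-fold above Clstn3 (range 2.49 to 3.10 over the libraries), and Clstn3 stood 4.16-fold above Nxph3 (2.28 to 8.26). Nxph3 lay 2.56-fold above Nxph1, with the narrowest gap of 1.19-fold in scrambled replicate 1 and the widest of 6.21-fold in scrambled replicate 3. Nxph1 lay 3.74-fold above Clstn2 (2.68 to 5.76), and Clstn2 lay 7.08-fold above Nxph4 (2.04 to 16.8). These are geometric means of the ratio within a library. Each of the 5 neighbouring pairs differed in the same direction in 8 of 8 libraries, a description without a test, since the order was read from these libraries. The fourth family member, Nxph2, had 4 counts in knockdown replicate 1 and 0 counts in the other libraries, so it was too low to test.

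**Figure D1:**
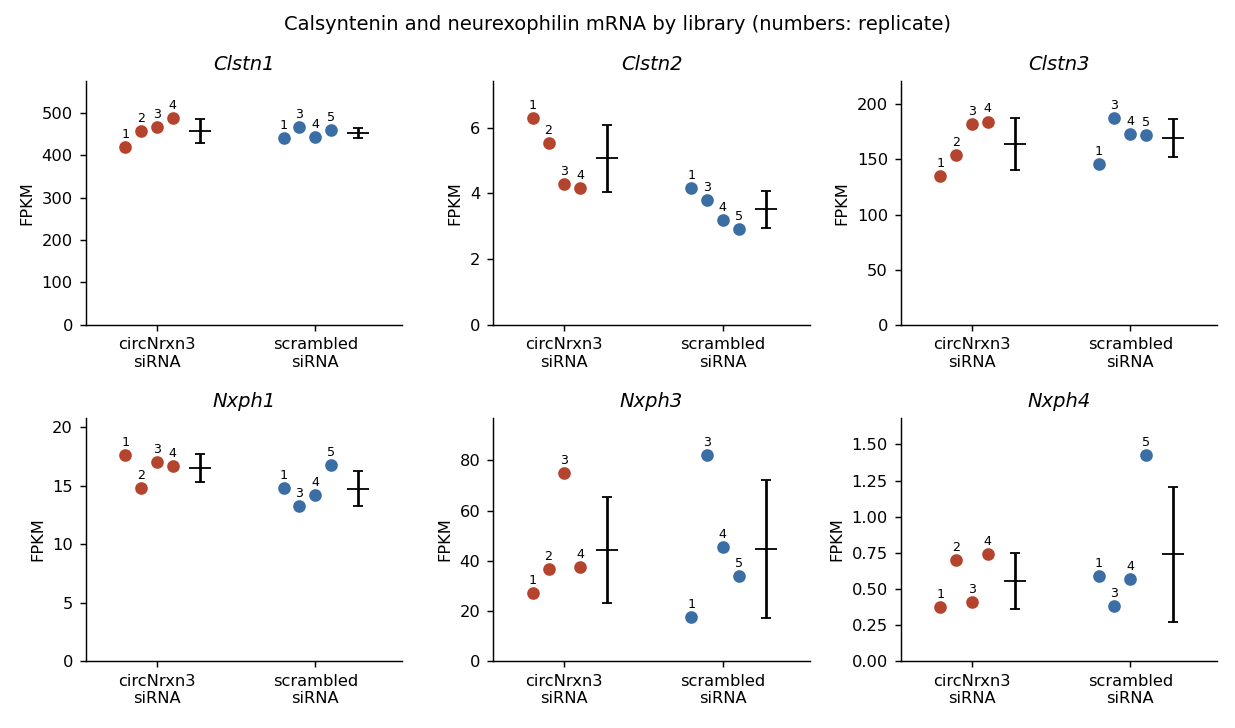
FPKM of each gene (y axis, from 0) in knockdown libraries (red) and scrambled libraries (blue), with the replicate number above each point and black bars for the mean ± SD of each group of 4. The groups overlap in each of the 6 panels, most narrowly for Clstn2, where 3 knockdown libraries lie above the highest scrambled one, and Nxph3 is widely spread within both groups.

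None of the 6 genes passed the test between the siRNA groups. The edgeR quasi-likelihood test called 0 of 16573 tested genes (0%) at a Benjamini-Hochberg adjusted p under 0.05, with 926 genes (5.59%) at an unadjusted p under 0.05, 395 of them higher (2.38%) and 531 lower (3.2%) in knockdown libraries. Limma-voom called 0 genes and DESeq2 called 18, or 12 without its independent filter, with none of the 6 among them. All 6 members passed the filter on low counts and were tested. Of these, 1 (Clstn2) had an unadjusted p under 0.05, and 0 had knockdown and scrambled values that did not overlap, against 3.48% of all tested genes. Log2 fold changes were above 0 for 3 of the 6, with a median of 0.0098, against 51.3% and a median of 0.0066 over all genes tested.

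Among the calsyntenins, Clstn1 had by far the highest mRNA level and the least spread. Clstn1 (ENSRNOG00000016398, chromosome 5, 166533181 to 166601684, plus strand, rn6) was at 419, 457, 466 and 487 FPKM in knockdown replicates 1 to 4, against 441, 466, 443 and 460 FPKM in scrambled replicates 1, 3, 4 and 5. The scrambled values all fell inside the knockdown range, so the groups overlapped fully. On the log2 scale the fold change was 0.028 (standard error 0.072, edgeR adjusted p = 0.951). The sign turned to −0.0020 without knockdown replicate 4 and to −0.033 with each library's trend on gene length removed. The Clstn1 model lies within 1 kb of that of Pik3cd, a lipid kinase subunit.

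Clstn3, the neurexin-binding calsyntenin, likewise gave nearly equal group means. Clstn3 (ENSRNOG00000011156, chromosome 4, 157043925 to 157078130, minus strand) was at 135, 154, 182 and 184 FPKM in knockdown replicates 1 to 4, against 146, 187, 173 and 172 FPKM in scrambled replicates 1, 3, 4 and 5. Replicate 1 was the lowest library of each group. The log2 fold change was −0.036 (standard error 0.11, edgeR adjusted p = 0.961), and it turned to 0.045 without knockdown replicate 1 and to 0.0077 without scrambled replicate 3. The model overlaps Zfp42l on the plus strand, which had 0 to 7 counts per library. These counts do not show how reads in the overlap were assigned, and the effect of the overlap on the Clstn3 count was not tested.

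Clstn2, the calsyntenin with the lowest mRNA level, showed the largest difference among the 6 genes. Clstn2 (ENSRNOG00000043085, chromosome 8, 105323837 to 105462168, minus strand) had 646, 469, 329 and 363 reads in knockdown replicates 1 to 4, against 322, 347, 293 and 235 reads in scrambled replicates 1, 3, 4 and 5. On the FPKM scale this was 6.29, 5.53, 4.29 and 4.16 in the knockdown and 4.17, 3.80, 3.20 and 2.91 in the scrambled libraries. Of the 4 knockdown libraries 3 lay above the highest scrambled library, and knockdown replicate 4 lay just under it. Group means were 5.07 ± 1.02 FPKM in knockdown and 3.52 ± 0.569 FPKM in scrambled libraries (SD, n = 4 each). The log2 fold change was 0.54 (standard error 0.18), a fold of 1.45, which did not pass (edgeR unadjusted p = 0.0125, adjusted p = 0.833). It ranged from 0.42 without knockdown replicate 1 to 0.64 without scrambled replicate 1.

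Knockdown replicates 1 and 2, the libraries with the most Clstn2, were also the richest in long transcripts, while the other libraries did not keep one order in both. The log2 ratio of protein-coding genes over 3622 bp to those under 1527 bp was 0.10, 0.15, −0.06 and 0.01 in knockdown replicates 1 to 4, against 0.06, −0.09, −0.17 and 0.0001 in scrambled replicates 1, 3, 4 and 5. With the trend of each library on gene length removed, the Clstn2 log2 fold change was 0.51 (standard error 0.17). Its gene model holds 2729 bp of exons within a span of 138332 bp.

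The shares of Clstn1 and Clstn3 in the calsyntenin mRNA pool were nearly the same in every library. Clstn1 gave 73.1 ± 1.59% of the summed calsyntenin FPKM in knockdown and 72.4 ± 1.61% in scrambled libraries (SD, n = 4 each). Clstn3 gave 26.1 ± 1.82% in knockdown and 27.1 ± 1.68% in scrambled libraries. Clstn2 gave 0.822 ± 0.235% in knockdown and 0.564 ± 0.106% in scrambled libraries, a minor part of the pool in both groups. The Clstn2 share ran from 0.458% in scrambled replicate 5 to 1.12% in knockdown replicate 1. These shares were described and not tested.

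**Figure D2:**
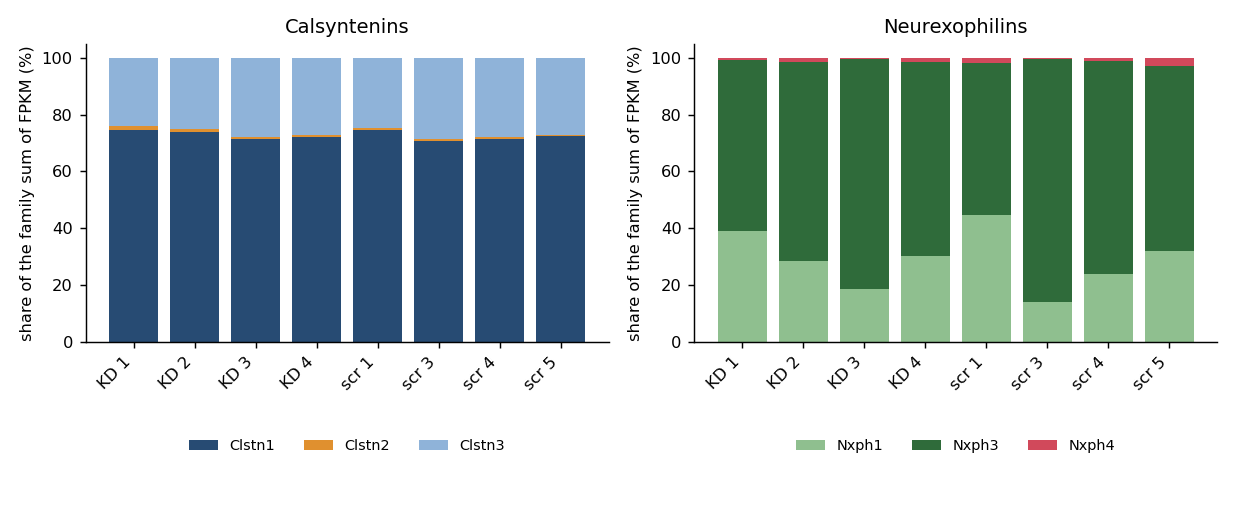
Stacked bars give each gene's share (%) of the summed FPKM of its family in each library, calsyntenins on the left and neurexophilins on the right, with knockdown (KD) libraries left of scrambled (scr) ones. Clstn1 holds 70.9% to 74.8% of its family in each of the 8 libraries, whereas the Nxph3 share runs from 53.4% to 85.8% and is lowest in scrambled replicate 1.

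The promoters of Clstn2 and Clstn3 are shown because both hold the letters TGACGTCA, the palindromic cAMP response element that binds the CREB family of activity-regulated transcription factors, while the members differ widely in level. RefSeq promoters of the GRCr8 assembly, 250 bases before to 50 bases after the gene start, were matched by symbol for 4 of the 6 members. The motif, which reads the same on both strands, is in capitals. It starts 53 bases before the gene start in Clstn2 (chr8:107516353-107516652, minus strand, GRCr8) and 144 bases before it in Clstn3 (chr4:159051020-159051319, minus strand, GRCr8).
Clstn2 promoter: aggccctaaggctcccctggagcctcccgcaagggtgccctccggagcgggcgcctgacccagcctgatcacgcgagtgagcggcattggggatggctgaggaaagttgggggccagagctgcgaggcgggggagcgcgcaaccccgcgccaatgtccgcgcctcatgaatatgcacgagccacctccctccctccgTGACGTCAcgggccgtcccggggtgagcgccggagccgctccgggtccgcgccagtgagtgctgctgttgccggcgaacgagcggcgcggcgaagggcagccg
Clstn3 promoter: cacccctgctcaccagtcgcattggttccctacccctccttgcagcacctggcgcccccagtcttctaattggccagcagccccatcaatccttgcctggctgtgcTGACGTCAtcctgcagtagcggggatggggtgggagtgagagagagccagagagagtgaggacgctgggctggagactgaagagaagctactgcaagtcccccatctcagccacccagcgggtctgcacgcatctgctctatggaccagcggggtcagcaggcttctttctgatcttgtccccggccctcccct
The same letters stand in 1.83% of 33469 rat promoters of this length, and are not in the windows of Clstn1 and Nxph1. The windows also differ in CpG dinucleotides, with 48 in Clstn1, 35 in Clstn2, 9 in Clstn3 and 19 in Nxph1, against a median of 7 over all promoters. The share over all promoters was not matched for CpG content, and no enrichment was tested. A match describes the sequence and no binding was measured.

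Among the neurexophilins, Nxph1, the interneuron-expressed ligand of alpha-neurexins, had the steadiest mRNA level. Nxph1 (ENSRNOG00000008939, chromosome 4, 35279063 to 35281013, plus strand, rn6) was at 17.6, 14.8, 17.0 and 16.7 FPKM in knockdown replicates 1 to 4, against 14.8, 13.2, 14.2 and 16.8 FPKM in scrambled replicates 1, 3, 4 and 5. Of the knockdown libraries 2 lay above the highest scrambled one, and the groups overlapped. The log2 fold change was 0.18 (standard error 0.095), which did not pass (edgeR unadjusted p = 0.0925, adjusted p = 0.833). It was 0.064 when scrambled replicates 3 and 4 and knockdown replicate 3 were left out together, and 0.29 over the 6 libraries of replicate numbers 1, 3 and 4. The gene model is a single exon of 1951 bp whose length equals its span, so reads in exons outside this model are not in the count.

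Interneuron markers moved in no common direction beside Nxph1. Of the 10 markers in the list 9 were tested, and 5 of these had a log2 fold change above 0 and 4 below, with a median of 0.02. Their summed level was 1126 to 1303 CPM (counts at a shared library size) in knockdown and 1154 to 1376 CPM in scrambled libraries. The markers with the smallest p were Vip, a neuropeptide of one interneuron class, with a log2 fold change of −0.16, and Slc32a1, the vesicular GABA transporter, with −0.18. Neither passed (edgeR adjusted p = 0.833 for each).

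Nxph3, the neurexophilin with the highest mRNA level, was the most variable of the well-expressed members. Nxph3 (ENSRNOG00000005185, chromosome 10, 83328410 to 83332851, minus strand) was at 27.2, 36.7, 75.1 and 37.7 FPKM in knockdown replicates 1 to 4, against 17.7, 82.2, 45.4 and 34.1 FPKM in scrambled replicates 1, 3, 4 and 5. Replicate 3 was the highest library of each group and replicate 1 the lowest. The scrambled range, 4.65-fold from lowest to highest, enclosed the whole knockdown range, which was 2.76-fold. Means were 44.2 ± 21.1 FPKM in knockdown and 44.8 ± 27.4 FPKM in scrambled libraries (SD, n = 4 each). The log2 fold change was −0.0081 (standard error 0.50, edgeR adjusted p = 0.999), and it ran from −0.40 without knockdown replicate 3 to 0.45 without scrambled replicate 3.

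Within the groups, the SD of Nxph3 on the log2 CPM scale was 0.78. Only 116 of 9018 genes with a mean CPM of at least 10 (1.29%) had a larger SD, and the median of those genes was 0.15. The SD was 0.07 for Clstn1, 0.18 for Clstn3, 0.13 for Nxph1 and 0.27 for Clstn2.

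Nxph3 was highest in the library of each group that was richest in layer 6 markers and poorest in upper-layer markers. On the CPM scale Nxph3 stood at 51.5, 69.1, 141 and 70.6 in knockdown replicates 1 to 4, against 33.2, 152, 84.3 and 63.6 in scrambled replicates 1, 3, 4 and 5. The 5 layer 6 markers Foxp2, Tle4, Syt6, Ntsr1 and Sulf1 summed to 59.1, 56.0, 101 and 51.8 CPM in the knockdown and 42.8, 89.1, 61.2 and 50.5 CPM in the scrambled libraries. The 6 upper-layer markers Cux1, Cux2, Rasgrf2, Calb1, Lamp5 and Rorb summed to 531, 545, 351 and 511 CPM in the knockdown and 609, 357, 470 and 493 CPM in the scrambled libraries. Layer 5 markers summed to 434, 322, 535 and 480 CPM in the knockdown and 299, 435, 464 and 388 CPM in the scrambled libraries, lowest in scrambled replicate 1 and highest in knockdown replicate 3 and scrambled replicate 4 of their groups. Markers of striatal neurons, a region beneath the cortex, summed to 318, 351, 394 and 345 CPM in the knockdown and 338, 417, 322 and 324 CPM in the scrambled libraries, so they too were highest in replicate 3 of both groups. Knockdown and scrambled replicate 3 were thus highest in Nxph3 and in layer 6 markers and lowest in upper-layer markers, and scrambled replicate 1 was the reverse. Among the other knockdown libraries Nxph3 and the layer 6 sum ran in opposite orders. Nxph3 was at 51.5, 69.1 and 70.6 CPM there, and layer 6 markers at 59.1, 56.0 and 51.8 CPM. In whole tissue, fewer cells of a type and less RNA per cell cannot be told apart. The part of layer or striatal content in the Nxph3 spread was not tested, and without both replicate 3 libraries the Nxph3 log2 fold change was 0.079 (standard error 0.34).

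**Figure D3:**
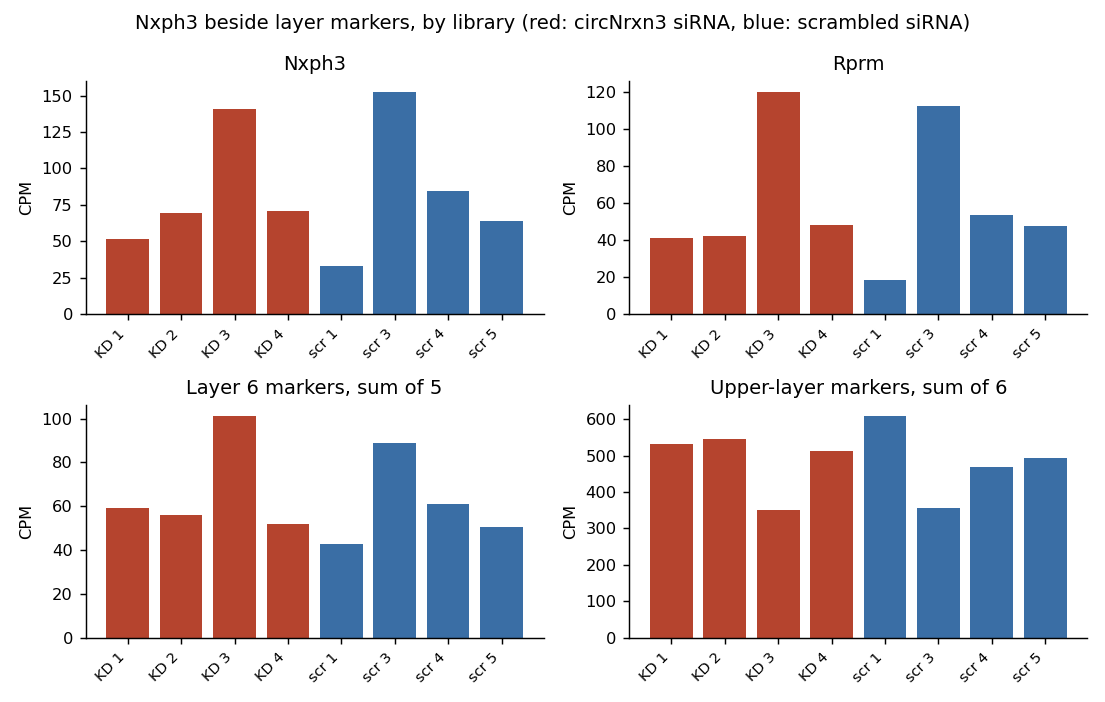
Bars give CPM per library (y axes from 0) of Nxph3, of Rprm, of the sum of 5 layer 6 markers and of the sum of 6 upper-layer markers, with knockdown libraries in red and scrambled libraries in blue. Replicate 3 of both groups is highest in Nxph3, Rprm and layer 6 markers (101 and 89.1 CPM) and lowest in upper-layer markers (351 and 357 CPM). Rprm was picked for its correlation with Nxph3 over these same libraries, so its like pattern follows from that choice.

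Of the layer 6 markers, 3 of 5 had a log2 fold change above 0, with a median of 0.05. Those with the smallest p were Ntsr1, a neurotensin receptor (−0.83), and Tle4, a transcriptional corepressor (0.13), and neither passed (edgeR adjusted p = 0.868 and 0.886). For layer 6b, the thin deepest layer, 5 of 7 symbols were found, 2 of them above 0, with a median of −0.11. Here Nr4a2, an orphan nuclear receptor, had 0.54 and Cplx3, a complexin, −0.26 (edgeR adjusted p = 0.833 for each). The layer 6b sum stayed between 65.4 and 71.9 CPM in knockdown and between 62.1 and 83.5 CPM in scrambled libraries, and so did not follow the replicate 3 peak of Nxph3.

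Nxph4 had the fewest reads of the 6 genes. Nxph4 (ENSRNOG00000025059, chromosome 7, 70833663 to 70842405, minus strand) had 22, 34, 18 and 37 reads in knockdown replicates 1 to 4, against 26, 20, 30 and 66 reads in scrambled replicates 1, 3, 4 and 5. Scrambled replicate 5 stood alone at 1.43 FPKM, while the other libraries of both groups lay between 0.374 and 0.739 FPKM. The log2 fold change was −0.40 (standard error 0.47, edgeR adjusted p = 0.897), and it was 0.12 without scrambled replicate 5. Scrambled replicate 5 also had the highest layer 6b sum, 83.5 CPM, and the highest oligodendrocyte sum, 4836 CPM, against 2058 to 4261 CPM in the other libraries. It was highest too in summed markers of oligodendrocyte precursor cells (242 CPM) and of microglia (384 CPM). Of the layer 6b markers, Ctgf and Cplx3 were highest in this library, while Nr4a2, Moxd1 and Lpar1 were not. The part of any of these in the Nxph4 value was not tested.

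Nxph3 made up most of the neurexophilin mRNA. Its share of the summed FPKM was 60.2, 70.3, 81.2 and 68.4% in knockdown replicates 1 to 4, against 53.4, 85.8, 75.4 and 65.2% in scrambled replicates 1, 3, 4 and 5. Nxph1 gave 29.0 ± 8.44% in knockdown and 28.6 ± 13.1% in scrambled libraries (SD, n = 4 each). Nxph4 gave 0.987 ± 0.436% in knockdown and 1.46 ± 1.02% in scrambled libraries. The group means of each share lay well within the spread between libraries.

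**Figure D4:**
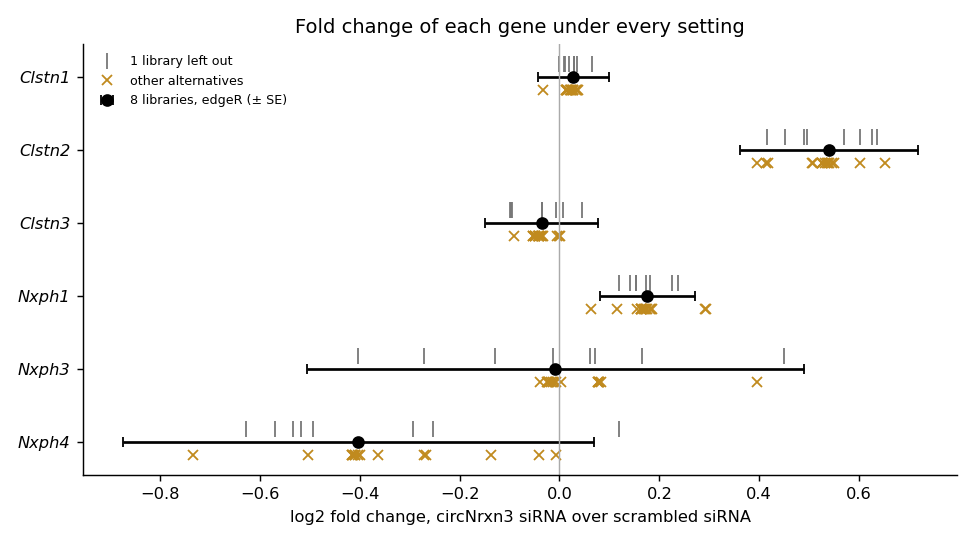
Log2 fold change of knockdown over scrambled libraries (x axis) for each gene, as black points with standard errors from 8 libraries (edgeR), grey ticks for fits that leave out 1 library and crosses for the other alternatives. Clstn2 and Nxph1 lie above 0 in every fit drawn, while Nxph3 spans −0.40 to 0.45.

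Neurexins are the receptors that both families meet. Nrxn2 averaged 797 ± 69.5 CPM in knockdown and 939 ± 36.9 CPM in scrambled libraries (SD, n = 4 each), or −0.24 on the log2 scale (edgeR unadjusted p = 0.0141, adjusted p = 0.833), and the groups did not overlap. Nrxn3 had 0.20 with a standard error of 0.48 and was lowest of each group in replicate 3.

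The other known neurexin ligands gave no call. Of 19 symbols 16 were tested, with 0 called in either direction, 9 above 0 and a median log2 fold change of 0.04. Those with the smallest p were Cbln2, a secreted ligand that bridges neurexins to postsynaptic receptors (0.35, standard error 0.08), Lrrtm2, a leucine-rich repeat ligand (0.36, standard error 0.14), and C1ql3, a secreted C1q-domain protein (−0.27, standard error 0.16). Each had an edgeR adjusted p of 0.833. Knockdown and scrambled values did not overlap for Cbln2 alone of the 16. Over all genes tested, values did not overlap for 3.48%, and 51.3% were above 0.

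Genes that carry or cut calsyntenins gave no call. Of 23 symbols 22 were tested, with 0 called in either direction, 13 above 0 and a median log2 fold change of 0.02. The share above 0 was 51.3% over all genes tested. Adam10, a protease that sheds the outer domains of APP and of other membrane proteins, was at 18.3, 21.8, 11.7 and 14.7 CPM in knockdown replicates 1 to 4, against 14.4, 7.57, 9.60 and 12.8 CPM in scrambled replicates 1, 3, 4 and 5. The Adam10 log2 fold change was 0.59 (standard error 0.24, edgeR unadjusted p = 0.0337, adjusted p = 0.833), and the groups overlapped. App, the precursor protein that shares vesicles with Clstn1, averaged 1468 ± 78.2 CPM in knockdown and 1299 ± 76.2 CPM in scrambled libraries (SD, n = 4 each), or 0.18 on the log2 scale (edgeR adjusted p = 0.833). Aph1a, a subunit of the gamma-secretase that makes the second cut, had −0.15 (edgeR adjusted p = 0.833).

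**Figure D5:**
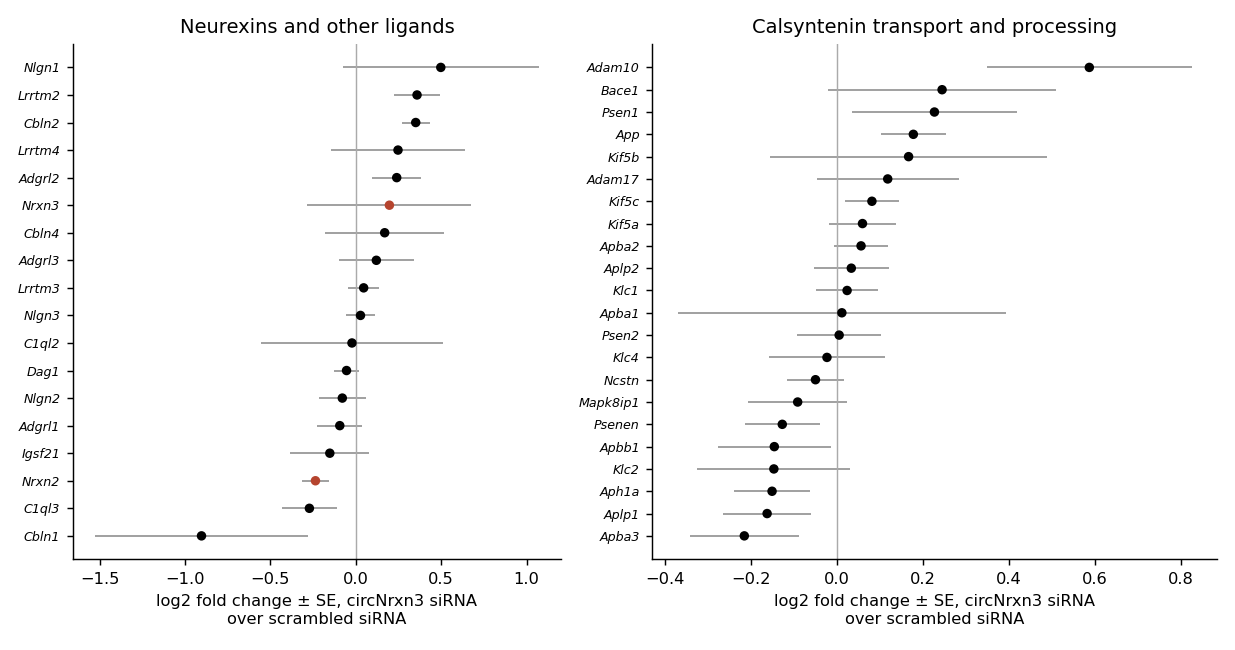
Log2 fold change of knockdown over scrambled libraries (x axis, points with standard error bars) for Nrxn2 and Nrxn3 (red) and 16 other neurexin ligands on the left and for 22 genes of calsyntenin transport and processing on the right. Points lie on both sides of 0 in both panels, from Cbln1 and Apba3 at the bottom to Nlgn1 and Adam10 at the top.

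The genes whose levels followed each member most closely over the 8 libraries were picked by Pearson r of log2 CPM among 8603 protein-coding genes with a mean CPM of at least 10 (8604 for Nxph4, which is below that level itself). With 8 libraries and so many genes, high values arise for any gene, so they are descriptions without a test. Nxph3 was followed by Sez6, a neuronal membrane protein linked to seizures (r = 0.981, Spearman rho = 0.976), Rprm (0.980, rho = 0.952) and Rnf31, a ubiquitin ligase subunit (0.979, rho = 0.905). Rprm, which encodes the cell cycle inhibitor reprimo, was at 41.2, 42.3, 120 and 47.8 CPM in knockdown replicates 1 to 4, against 18.4, 112, 53.4 and 47.4 CPM in scrambled replicates 1, 3, 4 and 5. It shared the replicate 3 peak and the scrambled replicate 1 minimum with Nxph3, at a like range of levels. Sez6 kept nearly the same order over a narrow range of 214 to 288 CPM.

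Clstn1 was followed by Pygo2 (r = 0.955, rho = 0.929), Camk2b (0.953, rho = 0.976) and Sidt2 (0.941, rho = 0.857). Camk2b encodes a subunit of a synaptic calcium-dependent kinase. Clstn2 was followed by the ubiquitin ligase Rnf145 (r = 0.979, rho = 0.976), Mdm1 (0.967, rho = 0.952) and Masp2 (0.965, rho = 0.857). For Clstn3 these genes were Zbtb17 (r = 0.983, rho = 0.976), Ppp6r1 (0.978, rho = 0.929) and the cold-inducible RNA-binding protein gene Cirbp (0.976, rho = 0.905). For Nxph1 they were Snx16 (r = 0.959, rho = 0.952), the cell cycle inhibitor Cdkn1b (0.930, rho = 0.952) and Rufy1 (0.930, rho = 0.952). Nxph4 was matched most closely by Rps27a, a ribosomal protein gene (r = 0.970, rho = 0.952), Wnt10a (0.919, rho = 0.810) and Cdr2l (0.917, rho = 0.881), with scrambled replicate 5 the highest library in each.

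Markers of the labelled tissue were present, beside those of other cell types. The excitatory neuron markers Slc17a7, Camk2a, Neurod6 and Tbr1 summed to 2094 to 2698 CPM in knockdown and 2488 to 2900 CPM in scrambled libraries, and none of the 4 was at 0. Markers of striatal neurons summed to 318 to 394 CPM in knockdown and 322 to 417 CPM in scrambled libraries, and the highest of each group was replicate 3, as for Nxph3. Astrocyte markers summed to 2121 to 2394 CPM in knockdown and 2430 to 2689 CPM in scrambled libraries, without overlap. Of the 7 markers, 6 had a log2 fold change below 0, and 0 had groups without overlap when taken singly. Over all genes tested, 51.3% were above 0 and 3.48% had groups without overlap. Microglia markers summed to 206 to 369 CPM in knockdown and 218 to 384 CPM in scrambled libraries. Red blood cell genes summed to 359 to 759 CPM in knockdown and 607 to 2438 CPM in scrambled libraries. Of these genes 5 of 5 were below 0, with log2 fold changes of −0.84 to −1.23, and 0 were called. Groups did not overlap for 2 of the 5, against 3.48% of all genes tested. The sum was highest in scrambled replicate 3. Oligodendrocyte markers had 9 of 9 above 0, and markers of oligodendrocyte precursor cells had 4 of 4 below 0. The part of these cell types in the values of the 6 genes was not tested.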

How the data were processed

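Per the labels' protocols, poly-T selected RNA was made into strand-marking (dUTP) libraries. The authors' count table holds raw counts of reads per gene, as whole numbers, and the authors also deposited FPKM values, whose library totals were already scaled between samples. Per the submitters' processing notes, the genome build was rn6 and the tools included HISAT2 2.0.5, featureCounts 1.5.0-p3, StringTie 1.3.3b and fastp, with roles, settings and use of strand in counting not given in the sources used here. Columns were matched to samples by title.

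Counts were fitted with edgeR 4.0.16 in R 4.3.3 (filterByExpr with a minimum count of 10, TMM factors, robust quasi-likelihood test, no covariates) over all genes. P-values are 2-sided, Benjamini-Hochberg adjusted over 16573 genes, called under 0.05. Fold changes are log2, knockdown over scrambled. Standard errors were taken as |log2 fold change| over √F, and CPM use TMM factors. The procedure was tested on simulated data. Alternatives were other scalings and filters, DESeq2 1.42.0, limma-voom and limma-trend (limma 3.58.1) on FPKM, a replicate block, removal of the trend on gene length, and libraries left out.

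Named genes are the 6 members, Nrxn2 and Nrxn3, the 3 genes of each other pathway list and the 2 of the interneuron, layer 6 and layer 6b lists with the smallest p, and the 3 genes most like each member. A planned test of neighbouring levels is left out of the text, since the order it tests was read from the same libraries. Of 127 symbols written down in 17 lists, Lrrtm1, Aph1b, Ccn2 (found as Ctgf), Hs3st4, Pecam1 and Hbb-bs were not found in the protein-coding rows, and 2 further genes are not reported here. The members and lists were chosen with earlier results of these data known. Libraries of a group differed pairwise by more than sampling noise (chi-square over degrees of freedom, 23.2 to 47.4). The labels call the samples biological replicates, so the spread behind each p is that between animals.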

Additional observations from a re-analysis of the deposited data

How the results depend on the processing

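None of the 6 genes passed under any of the alternatives run, planned or added (edgeR, limma or DESeq2 adjusted p of 0.257 to 1.0). Clstn2 kept its direction in 24 of 24 alternatives (0.40 to 0.65) and Nxph1 in 24 of 24 (0.064 to 0.29). The alternatives refit the same libraries or part of them, so these counts are not independent repeats. With 1 library left out, log2 fold changes ranged from −0.0020 to 0.066 for Clstn1, from 0.42 to 0.64 for Clstn2, from −0.10 to 0.045 for Clstn3, from 0.12 to 0.24 for Nxph1, from −0.40 to 0.45 for Nxph3 and from −0.63 to 0.12 for Nxph4, and the count of genes called ranged from 0 to 1 (1 without knockdown replicate 2 or 3). Leaving out 1 library turned the sign of Clstn1 without knockdown replicate 4 (−0.0020), of Clstn3 without knockdown replicate 1 (0.045) or scrambled replicate 3 (0.0077) and of Nxph4 without scrambled replicate 5 (0.12). It turned that of Nxph3 without knockdown replicates 1, 2 and 4 (0.17, 0.071 and 0.062) and scrambled replicate 3 (0.45). With the length trend removed, Clstn1 was at −0.033 and Nxph3 at 0.0039. Nxph3 was also above 0 with limma-voom (0.077), with limma on log2(FPKM + 1) (0.078) and log2(FPKM + 0.1) (0.083), without scrambled replicates 3 and 4 and knockdown replicate 3 together (0.40) and without both replicate 3 libraries (0.079). The cause of these sign changes was not tested. DESeq2 called 18 genes over the table and 12 without its independent filter, and 3 genes were called without the 3 libraries named above. DESeq2 gave no adjusted p to Clstn2, Nxph1 and Nxph4 under its filter, which left out genes under a mean count of 1452. Nxph4 was not tested with the filter of a CPM of at least 1 in 4 libraries.

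Replicate numbers 1, 3 and 4 occur in both groups. Deviations from the group means correlated at 0.087 to 0.369 between same-numbered libraries, so not every pair was over 0.1, and 5 of 6 libraries correlated best with their own number, a hint from the data and not the design. With a replicate block over these 6 libraries the edgeR test called 0 genes, Nxph3 was at 0.078, Nxph1 at 0.29, Nxph4 at −0.042 and Clstn2 at 0.40, and no member passed. Without the block the same 6 libraries gave 0 calls, with 0.0006 for Clstn3, 0.29 for Nxph1, −0.0062 for Nxph4 and 0.41 for Clstn2. The order of the 5 neighbouring levels held under 11 of 11 alternatives. These could not have changed it, since each pair differed in the same direction in every library. The fits without both replicate 3 libraries, of the 6 libraries without a block and of DESeq2 without its filter were chosen after seeing the data. Depth limits Nxph4, with 18 to 66 reads per library, far more than Clstn1, with 54636 to 69146.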
